A study of Mus musculus with 8 samples.

Results

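The mRNAs of the cell division programme were followed in the olfactory mucosa of newborn mice in which Emx2 was deleted in olfactory sensory neurons (OSNs). The set was chosen by gene symbol as 10 genes, namely Mki67, Top2a, Ccnb1, Ccna2, Cdk1, Aurkb, Birc5, Plk1, Mcm2 and Mcm5. Of these, 9 had a row of their own on the array, among 19938 genes with such a row in the whole series. Top2a had 2 rows, and the brighter was used throughout. Ccnb1 had no row with that single symbol and is not analysed here.

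The study asked whether the transcription factor Emx2 acts in OSNs to set which odorant receptors are expressed. Olfactory mucosa was dissected on postnatal day 1, and its RNA was measured on Affymetrix Mouse Gene ST arrays, 1 for each sample. The knockout group held 4 samples of genotype 123Cre:Emx2(fl/fl). The control group held 4 littermate samples, of which 2 were 123Cre:Emx2(fl/+) and 2 were Emx2(fl/fl) without Cre. Emx2 was thus floxed in every sample, and all mice were of the same strain mixture, 129 x C57BL/6J. The 123 promoter drives Cre from the immature OSN stage onward, so the dividing basal cells lie upstream of the stage at which Emx2 was deleted. The study reports that this Cre recombined a reporter gene in only part of the OSNs, in mice of another cross. Per the study's methods, litters gave both knockouts and controls.

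The olfactory epithelium replaces its neurons throughout life. Globose basal cells divide near the basement membrane and their daughters leave the cell cycle to become immature and then mature OSNs, while horizontal basal cells divide rarely. Transcripts of the cell cycle are made in waves, with replication genes preceding mitotic genes, so their levels in whole mucosa can reflect both how many cells divide and at which stage they stand.

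Markers of the labelled tissue were bright on the array. On the deposited log2 scale, the mature OSN gene Omp averaged 12.88 in knockout and 12.94 in control samples, and the sustentacular cell gene Cyp2g1 averaged 14.02 in both. Emx2 mRNA had log2 values of 9.80, 9.86, 10.01 and 9.93 in knockout samples and 10.80, 10.86, 11.00 and 10.72 in controls. The groups did not overlap, and Emx2 was lower in knockout mucosa by a log2 difference of -0.94 (SE 0.082, adjusted p = 0.0014 in limma, 4 samples against 4). One array, knockout replicate 2, correlated less well with the rest (0.978 on average) than any other array did (0.987 to 0.99). Its array weight in limma was 0.17.

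The promoters of 4 members are shown because these genes represent the 2 patterns across samples described further on, Top2a and Mki67 on one side, Plk1 and Mcm5 on the other. Each is the RefSeq sequence (GRCm38.p6) of the 250 bases before the annotated start of the gene, read on the strand of the gene. The windows are chr11:99024190-99024439 for Top2a (minus strand), chr7:135716380-135716629 for Mki67 (minus strand), chr7:122159185-122159434 for Plk1 (plus strand) and chr8:75109259-75109508 for Mcm5 (plus strand). Capitals mark matches to 3 motifs, searched on both strands. They are the CCAAT box (CCAAT), the cell cycle homology region (TTTGAA) and 4 words of the E2F site (TTTCCCGC, TTTCGCGC, TTTGCCGC and TTTGGCGC).
Top2a: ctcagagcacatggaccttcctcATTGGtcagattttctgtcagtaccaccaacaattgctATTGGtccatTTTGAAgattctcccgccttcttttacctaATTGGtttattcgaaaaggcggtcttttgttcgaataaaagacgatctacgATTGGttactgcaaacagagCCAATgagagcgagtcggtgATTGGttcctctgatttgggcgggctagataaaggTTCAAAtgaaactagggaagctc
Mki67: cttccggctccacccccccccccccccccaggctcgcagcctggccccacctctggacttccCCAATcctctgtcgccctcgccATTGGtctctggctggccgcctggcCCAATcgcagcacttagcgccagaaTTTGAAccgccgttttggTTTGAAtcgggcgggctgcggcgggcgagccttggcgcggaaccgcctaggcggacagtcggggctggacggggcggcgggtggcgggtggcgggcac
Plk1: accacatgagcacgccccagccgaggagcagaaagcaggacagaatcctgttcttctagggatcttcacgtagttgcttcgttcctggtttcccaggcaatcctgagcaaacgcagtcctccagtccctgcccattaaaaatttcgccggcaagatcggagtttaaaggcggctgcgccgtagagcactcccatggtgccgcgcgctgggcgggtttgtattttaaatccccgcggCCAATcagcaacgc
Mcm5: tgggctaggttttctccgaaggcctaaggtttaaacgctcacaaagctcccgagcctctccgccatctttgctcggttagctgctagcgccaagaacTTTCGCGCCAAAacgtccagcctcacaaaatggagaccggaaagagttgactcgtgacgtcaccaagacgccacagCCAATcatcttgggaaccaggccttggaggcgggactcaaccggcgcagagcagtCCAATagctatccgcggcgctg

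Top2a had 6 CCAAT boxes and 2 cell cycle homology regions in its window, and Mki67 had 3 and 2. Plk1 had 1 CCAAT box, 9 bases before the start, and neither other motif. Mcm5 had 2 CCAAT boxes and 2 overlapping E2F words that share their central bases on opposite strands. A window was available for 8 of the 10 genes, and those of Ccna2 and Aurkb were not. The CCAAT box was found in 7 of the 8 windows (87.5%), against 33.8% of 32851 windows of all genes, and in 72.7% of windows of other mitotic genes and 57.9% of windows of other replication genes. The cell cycle homology region was in 4 of 8 windows (50%), against 16.0% of all windows, and the E2F words in 2 of 8 (25.0%), against 1.86%. Windows with the cell cycle homology region were those of Top2a, Mki67, Cdk1 and Mcm2, so genes of both patterns carried it. Cdk1 and Mcm2 varied across samples with Plk1 and Mcm5, whose windows lacked it. The E2F words were in the windows of Mcm5 and Cdk1. The E2F words were found in 23.7% of windows of other replication genes and 1.82% of those of other mitotic genes, and the cell cycle homology region in 7.89% and 30.9% of the same windows. These shares are descriptions of letters in a window, and binding was not measured.

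The members had similar levels in knockout and control mucosa, and each of the 9 differences was smaller than the SD within either group. None passed the test (0 of 9 in limma at an adjusted p under 0.05, 0 of 9 at an unadjusted p under 0.05, and 0 of 9 in the methods' t-test at either threshold). Of all 23410 rows tested, 0.359% were called in the same fit and 6.1% had an unadjusted p under 0.05. The median log2 difference of the members was -0.07, against 0.0041 over all rows. In this bulk tissue, fewer cells of a type and less RNA per cell cannot be told apart.

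The replication members encode subunits of the MCM helicase, which opens DNA ahead of the replication fork. Mcm2 had log2 values of 10.31, 10.77, 10.15 and 10.16 in knockout samples, against 10.59, 10.42, 10.42 and 10.34 in controls. Knockout replicate 2 was the highest of all 8 samples, while the other knockouts lay below every control. The difference was -0.09 (SE 0.138, 95% interval -0.41 to 0.22, adjusted p = 1.0), and without knockout replicate 2 it was -0.23 (SE 0.081, adjusted p = 0.402). Mcm5 had log2 values of 10.11, 10.49, 9.89 and 9.83 in knockout samples, against 10.31, 10.05, 10.04 and 9.93 in controls. Its groups overlapped over most of their range, with a difference of -0.0035 (95% interval -0.34 to 0.33), or -0.14 without knockout replicate 2.

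The other MCM subunits varied in the same narrow range. Mcm3 averaged 8.82 ± 0.329 in knockout and 8.82 ± 0.163 in control samples (log2 values, SD, n = 4 each). Knockout minus control was -0.08 for Mcm4, -0.11 for Mcm6 and -0.03 for Mcm7, and no adjusted p of these 4 genes was below 1.0.

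The kinases and the cyclin drive entry into S phase and mitosis. Cdk1, the catalytic partner of cyclins A and B, had log2 values of 10.53, 10.66, 10.46 and 10.27 in knockout samples, against 10.87, 10.49, 10.57 and 10.28 in controls. The lowest knockout and the lowest control were nearly level, and the difference was -0.07 (95% interval -0.37 to 0.23). Ccna2, which encodes cyclin A2, had log2 values of 11.49, 11.18, 11.60 and 11.41 in knockout samples, against 11.87, 11.26, 11.55 and 11.61 in controls. Over all 8 samples it had the most negative difference of the 9 members, -0.15 (SE 0.138, unadjusted p = 0.298, adjusted p = 1.0), and 3 knockouts lay within the span of the controls. Without knockout replicate 2 it was -0.07, nearer to 0 than Plk1 (-0.24) and Mcm2 (-0.23), and without control replicate 1 it was -0.05. That difference was -0.32 (SE 0.145, adjusted p = 0.998) against the 123Cre:Emx2(fl/+) controls and 0.01 (SE 0.148, adjusted p = 1.0) against the Emx2(fl/fl) controls.

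Plk1, a kinase needed for spindle assembly and mitotic entry, had log2 values of 10.334, 10.688, 10.002 and 9.876 in knockout samples, against 10.589, 10.380, 10.294 and 9.966 in controls. Its range over the 8 samples, 0.81, was the widest of the members, and the difference of -0.08 (95% interval -0.52 to 0.35) was small beside it. Aurkb, the kinase of the chromosomal passenger complex, had log2 values of 10.45, 10.71, 10.10 and 10.13 in knockout samples, against 10.66, 10.42, 10.33 and 10.03 in controls. The groups spanned nearly the same range, and the difference was -0.01 (95% interval -0.40 to 0.37). Birc5, or survivin, a subunit of the same complex, had log2 values of 8.40, 8.41, 8.1 and 8.07 in knockout samples, against 8.44, 8.37, 8.29 and 8.14 in controls. The 2 lowest values were knockouts and the highest was a control, with a difference of -0.07 (95% interval -0.31 to 0.18).

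The remaining subunits of the chromosomal passenger complex gave differences of -0.16 for Incenp (adjusted p = 0.981) and -0.11 for Cdca8, or borealin (adjusted p = 1.0). Aurka, the spindle pole kinase, gave -0.08, and Ccnb2, which encodes cyclin B2, gave -0.04, with log2 means of 11.51 ± 0.077 in knockout and 11.55 ± 0.177 in control samples (SD, n = 4 each). Ccnb2 is the B-type cyclin measured here, since Ccnb1 had no row of its own.

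Top2a, the topoisomerase that untangles sister chromatids, had log2 values of 10.67, 10.16, 10.91 and 10.78 in knockout samples, against 10.92, 10.39, 10.78 and 10.86 in controls. Knockout replicate 2 was the lowest of all samples, followed by control replicate 2, and the difference was -0.11 (95% interval -0.51 to 0.29), or 0.05 without knockout replicate 2. Mki67, the coat protein of mitotic chromosomes used as a marker of dividing cells, had log2 values of 10.98, 10.57, 10.94 and 10.77 in knockout samples, against 10.91, 10.56, 10.83 and 10.99 in controls. The groups were nearly superimposed, with a difference of -0.01 (SE 0.121, 95% interval -0.28 to 0.27).

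**Figure D1:**
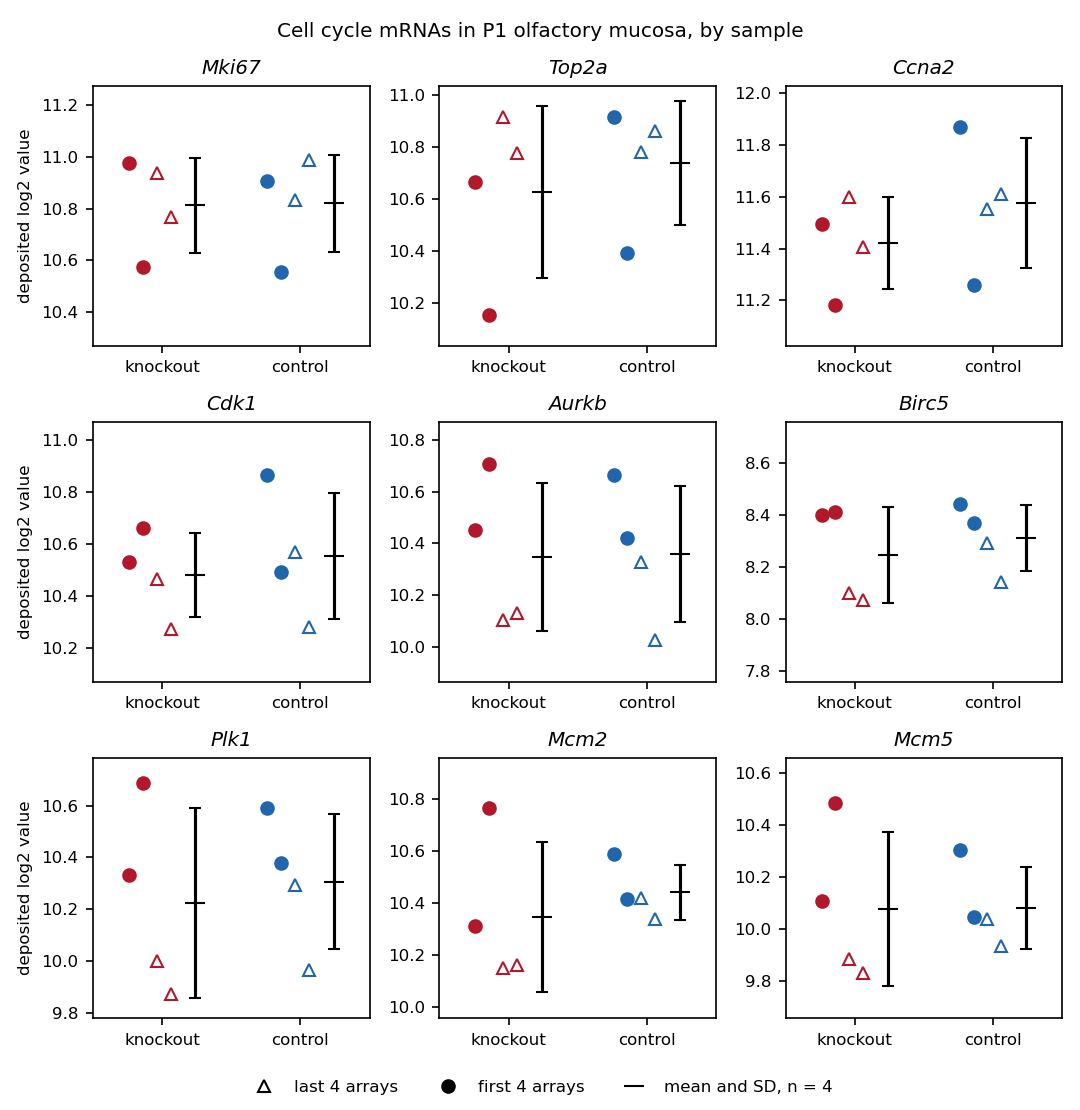
Deposited log2 value of each member (vertical axis, 1 log2 unit in every panel) in the 4 knockout and the 4 control samples, with open triangles for the last 4 and filled circles for the first 4 arrays, and mean and SD beside them. The groups overlap in every panel, and triangles sit below circles for Aurkb, Birc5, Plk1 and Mcm5.

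All 9 differences were below 0 as the values were deposited, where 48.4% of all rows were below 0, but the sign was not stable. It was below 0 in 6 of 9 members after quantile normalization or centring on the array median. After centring on 15 mature OSN genes it was below 0 in 0 of 9. That step moved the median of all rows by 0.16. The mean log2 value of these 15 genes was 11.55 to 11.70 in knockout and 11.73 to 11.83 in control samples. Without control replicate 1, 4 of 9 differences were below 0, without knockout replicate 4, 5 of 9, and against the Emx2(fl/fl) controls alone, 5 of 9. The values of the groups did not overlap in 0 of 9 members, against 4.52% of all rows. The 95% intervals reached at most 0.44 to either side of the difference.

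Wider lists of the pathway held no call either, by limma or by the methods' t-test. Of 39 other measured replication genes 0 were called, with a median log2 difference of -0.06, 8 above 0 and 31 below. Of 59 other measured mitotic genes 0 were called, with a median of -0.08, 6 above 0 and 53 below. Of all rows, 48.4% were below 0 and 0.359% were called in limma. In the same fit, 0 of these 98 genes had an unadjusted p under 0.05 in either direction, against 6.1% of all rows. Control replicate 1 had the highest mean of all samples for both lists. The mean log2 value of the mitotic genes was 9.34 in it, 9.02, 9.16 and 9.13 in the other controls and 8.98 to 9.16 in knockouts. That of the replication genes was 9.52 in it, 9.32, 9.37 and 9.27 in the other controls and 9.18 to 9.48 in knockouts. Signs under other scalings or with a sample left out are given for the members only. The lowest p-values in the replication list belonged to Gins1, a subunit of the GINS complex (-0.19, adjusted p = 0.822), and Prim1, the catalytic subunit of primase (-0.22, adjusted p = 0.845). In the mitotic list they belonged to the spindle protein Dlgap5 (-0.18, adjusted p = 0.834) and the midzone protein Prc1 (-0.26, adjusted p = 0.894). On the positive side, the lowest p-values belonged to the securin gene Pttg1 (0.10) and the ubiquitin-conjugating enzyme gene Ube2c (0.08) among mitotic genes, and to the polymerase delta gene Pold1 (0.04) and the flap endonuclease gene Fen1 (0.05) among replication genes, all with an adjusted p of 1.0.

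Of the 14 G1 and S entry genes, 0 were called, with Ccne2, which encodes cyclin E2, at 0.17, Ccnd3, which encodes cyclin D3, at 0.10, Dbf4, the activator of the Cdc7 kinase, at -0.18 and Cdc7 itself at -0.14. Among 22 transcription factors of the programme 0 were called, and Foxm1, which drives mitotic genes, averaged 9.45 ± 0.331 in knockout and 9.58 ± 0.205 in control samples (log2 values, SD, n = 4 each). Knockout minus control was 0.05 for Mybl2, 0.03 for E2f1 and -0.23 for Lin9, a subunit of the MuvB complex (adjusted p = 0.958). It was 0.16 for Myc, -0.18 for Mycn and -0.10 for the repressor gene E2f6, with adjusted p-values of at least 0.917. Of 15 measured brakes on division, 0 were called and 1 had an unadjusted p under 0.05, a share close to the 6.1% of all rows. That gene was Cdkn1b, the inhibitor p27, at 10.38 ± 0.069 in knockout and 10.55 ± 0.077 in control samples (difference -0.17, SE 0.07, adjusted p = 0.789). Beside it stood Ccng2 at -0.17, Cdkn2b at 0.10 and Pkmyt1 at 0.06.

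Markers of the dividing and neighbouring cells stood beside these values. The 8 measured genes of globose basal cells and OSN progenitors, with Sox2 (difference -0.15) and Insm1 (-0.15) the brightest, had a mean log2 value of 10.28 to 10.45 in knockout and 10.35 to 10.49 in control samples. The 5 horizontal basal cell genes had a mean of 9.24 to 10.16 in knockout and 9.29 to 9.53 in control samples, highest in knockout replicate 2. None of these marker genes was called, and their part in the values of the members was not tested.

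**Figure D2:**
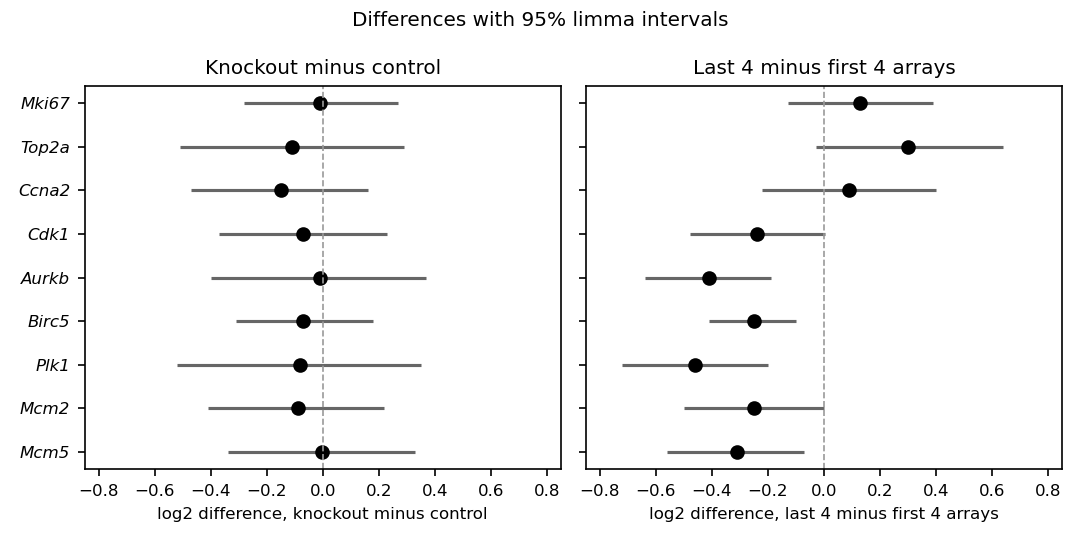
Log2 difference of each member (points) with its 95% limma interval (lines), for knockout minus control on the left and for the last 4 minus the first 4 arrays on the right. Every interval on the left holds 0, while those of Aurkb, Birc5, Plk1 and Mcm5 on the right run from -0.72 to -0.07 and that of Mcm2 ends at -0.0003.

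In 8 of 9 members the difference between early and late array numbers was larger in size than that between genotypes, as it was in 67.1% of all rows. The titles of the samples number the arrays from 1 to 8, without saying what the number stands for, and each set of 4 consecutive arrays held 2 knockouts and 2 controls. Differences are given as the last 4 arrays (numbers 5 to 8) minus the first 4 (numbers 1 to 4), in a fit that also held the genotype group. This comparison was added after the data had been seen. No member passed limma's adjusted threshold (0 of 9, as 0.0% of all rows), but 5 of 9 had an unadjusted p under 0.05, all lower in the last 4 arrays, against 30.4% of all rows at that threshold and 14.9% lower. In direction, 6 of 9 were lower, against 56.0% of all rows. The methods' t-test gave 4 of 9 at an unadjusted p under 0.05 and 0 of 9 adjusted. Without knockout replicate 2 the limma count was 4 of 9, and without knockout replicate 4 it was 3 of 9.

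Plk1 had the most negative of these differences. It averaged 10.03 ± 0.181 in the last 4 and 10.50 ± 0.168 in the first 4 arrays (log2 values, SD, n = 4 each), without overlap, a difference of -0.46 (SE 0.114, unadjusted p = 0.00312, adjusted p = 0.0821). Aurkb averaged 10.15 ± 0.127 in the last 4 and 10.56 ± 0.144 in the first 4 arrays, a difference of -0.41 (SE 0.098, adjusted p = 0.0821). Both kept the direction within each genotype, at -0.57 in knockouts and -0.35 in controls for Plk1, and at -0.46 in knockouts and -0.37 in controls for Aurkb. With array weights, Aurkb reached an adjusted p of 0.048 at a smaller difference of -0.29, the single call among all alternatives run for this comparison.

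Mcm5 differed by -0.31 (adjusted p = 0.106) and Birc5 by -0.25 (adjusted p = 0.0853), both without overlap between the last 4 and the first 4 arrays. In all, 4 of 9 members did not overlap and were lower in the last 4, against 9.45% of all rows. Mcm2 (-0.25, adjusted p = 0.164) and Cdk1 (-0.24, adjusted p = 0.167) overlapped. The difference of Mcm2 was -0.14 without knockout replicate 2, where Mcm5 kept -0.21. Chromosome genes lay on the other side of 0, with Top2a at 0.30 (SE 0.147, adjusted p = 0.197) and Mki67 at 0.13 (adjusted p = 0.474), beside Ccna2 at 0.09 (adjusted p = 0.681). The size of these differences depended on single arrays, as did the sign for Ccna2. With knockout replicate 2 left out they were 0.17 for Top2a, 0.06 for Mki67 and 0.01 for Ccna2, and without control replicate 2 they were 0.22, 0.05 and -0.02. Without control replicate 1 they were 0.43 for Top2a, 0.19 for Mki67 and 0.23 for Ccna2, and with both rows of Top2a averaged its difference was 0.08. The values of these 3 genes were spread more widely among the first 4 arrays, with an SD of 0.33 for Top2a, than among the last 4, with an SD of 0.066.

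In the wider lists 0 genes passed the adjusted threshold. Of 39 other replication genes, 17 were lower in the last 4 arrays and 1 was higher at an unadjusted p under 0.05. Of 59 mitotic genes, 22 were lower and 8 were higher at that threshold, against 14.9% of all rows lower and 15.5% higher. The MCM subunits Mcm3 (-0.34) and Mcm7 (-0.30) resembled Mcm5, whereas Mcm4 stood at -0.01 and Mcm6 at -0.17. Incenp (-0.28) and Cdca8 (-0.27) resembled their partners Aurkb and Birc5, and Cdc20, which activates the anaphase ubiquitin ligase, stood at -0.43 (adjusted p = 0.0821), close to the spindle gene Troap at -0.38 (adjusted p = 0.0821). Aurka was at -0.26 and Ccnb2 at -0.14. On the positive side stood Pola1, the catalytic subunit of DNA polymerase alpha (0.62, adjusted p = 0.0841), the condensin gene Smc2 (0.57, adjusted p = 0.087) and the centriole kinase gene Plk4 (0.53, adjusted p = 0.0952), with the checkpoint gene Clspn at 0.15.

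Pola2, which encodes the partner of Pola1 in the same polymerase complex, differed the opposite way, at -0.42 (adjusted p = 0.0821), as did Uhrf1, at -0.37 (adjusted p = 0.0821). Among G1 and S entry genes, Cks1b and Ccnd3 were at -0.45, with Ccne2 at 0.37 and Dbf4 at 0.26. The transcription factors were split likewise, with 12 above 0 and 10 below. Of 15 measured brakes, 13 were below 0, against 56.0% of all rows. The pocket protein genes Rb1, Rbl1 and Rbl2 were counted with the factors, so these counts depend on how genes were classed. Foxm1 was at -0.40 (adjusted p = 0.0853) and the inhibitor gene Cdkn1c at -0.48 (adjusted p = 0.0821), while Mybl1 was at 0.84 (adjusted p = 0.0856) and Rb1 at 0.44 (adjusted p = 0.0821). Myc was at -0.34, Lin9 at 0.26, Mybl2 at -0.13 and E2f1 at -0.03. Of the other brakes, Ccng1 was at 0.56 (adjusted p = 0.0821), Pkmyt1 at -0.32 and Gadd45a at 0.11. Ccng1 and Gadd45a were the only 2 genes of the brake list above 0. At an unadjusted p under 0.05 in limma, 3 of the 15 were lower and 1 was higher, against 14.9% and 15.5% of all rows. Cell type markers also differed between the array sets without passing the adjusted threshold. Krt5 of horizontal basal cells was at -0.94 (adjusted p = 0.0851) and the erythroid gene Alas2 at -0.46 (adjusted p = 0.0821). Of 3 measured erythroid genes, 1 was above 0 and 2 were below. The glial gene Fabp7 was at 0.57 (adjusted p = 0.0894), but the glial gene Erbb3 was at -0.32 (adjusted p = 0.0867). Of 5 measured glial genes, 1 was above 0 and 4 were below, with a median of -0.25. The 8 genes of globose basal cells and progenitors ran from -0.40 to 0.51, with 1 higher and 2 lower at an unadjusted p under 0.05. The 15 mature OSN genes ran from -0.25 to 0.55, with 1 higher and 1 lower. Their part in the differences of the members was not tested.

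Across the 8 samples the members followed 2 patterns rather than 1. Mki67, Top2a and Ccna2 varied together, with pairwise Pearson correlations of 0.80 to 0.88. Cdk1, Aurkb, Birc5, Plk1, Mcm2 and Mcm5 varied together as well, at 0.72 to 0.97, with Aurkb and Plk1 the closest pair. Between the sets the correlations ran from -0.61 to 0.28, and 17 of 18 were below 0. The sets were drawn after the values had been seen, all correlations rest on the same 8 arrays, and they are given as descriptions without a test.

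Single arrays carried much of this. Knockout replicate 2 was lowest for Top2a and Ccna2 and highest for Aurkb, Plk1, Mcm2 and Mcm5, while control replicate 2 was lowest for Mki67. Control replicate 1 was highest for Top2a, Ccna2, Cdk1 and Birc5 and above its own group's mean for all 9 members. Without knockout replicate 2 the correlations were 0.70 to 0.83 in the first set and 0.77 to 0.97 in the second, and 9 of 18 between the sets were below 0. Without control replicate 2 as well, they were 0.11 to 0.69 in the first set and 0.77 to 0.98 in the second, and 3 of 18 between the sets were below 0. The second set thus held together without these arrays, and the opposition of the sets did not. With the means of the groups and array sets removed, the ranges were 0.85 to 0.95, 0.47 to 0.97 and -0.50 to 0.55 between the sets.

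Both sets followed the main axis of variation among the arrays, in opposite directions. On the first principal component of all rows (52.0% of the variance) the highest scores were those of knockout replicate 2 (0.725) and control replicate 2 (0.345), and the other 6 arrays lay at -0.374 to 0.034. Its correlation over the 8 arrays was -0.93 with Top2a, -0.77 with Mki67 and -0.64 with Ccna2. In the second set it was 0.76 to 0.85 for Aurkb, Birc5, Plk1, Mcm2 and Mcm5 and 0.51 for Cdk1.

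**Figure D3:**
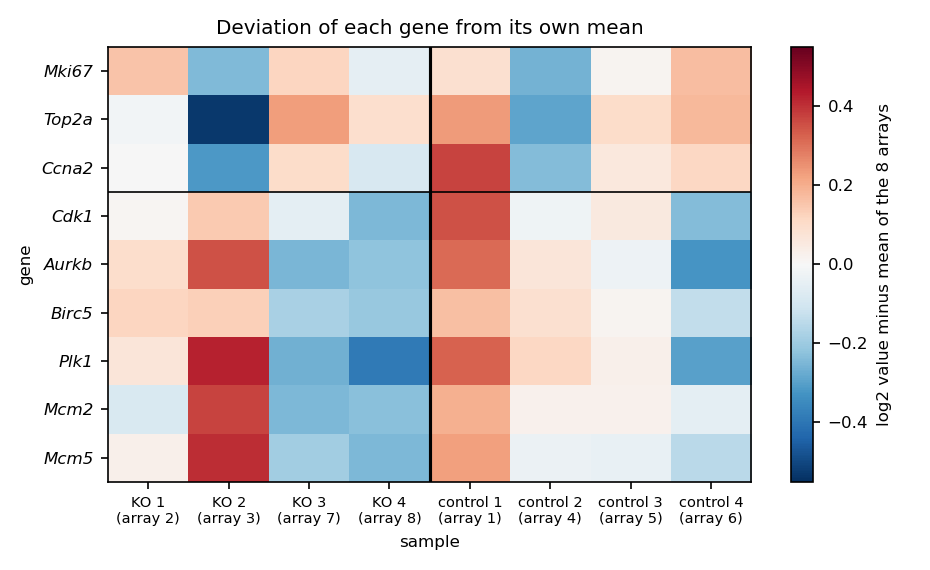
Log2 value of each member (rows) minus its own mean over the 8 arrays (colour scale), in the 4 knockout samples on the left and the 4 control samples on the right, with the array number of each in parentheses. Knockout replicate 2 is blue in the upper 3 rows (Mki67, Top2a, Ccna2) and red in the lower 6, and control replicate 1 is red in all 9.

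Other genes of replication and mitosis divided between the patterns, and the division shifted when knockout replicate 2 was left out. A correlation over 0.9 with Plk1 was found for 15 of 39 replication genes (38.5%) and 13 of 59 mitotic genes (22.0%), against 2.61% of the 10925 rows bright enough to be compared. A correlation over 0.9 with Top2a was found for 20 of 59 mitotic genes (33.9%) and 1 of 39 replication genes (2.56%), against 10.4% of these rows. The listed genes were of any brightness, whereas the rows compared had a mean above 8.71, so the sets are not alike in this. Without knockout replicate 2, the correlation with Plk1 was over 0.9 for 10 of 39 replication genes (25.6%) and 15 of 59 mitotic genes (25.4%), against 1.52% of these rows. That with Top2a was over 0.9 for 1 of 39 (2.56%) and 9 of 59 (15.3%), against 1.74%. Over all 8 arrays, the rows closest to Plk1 included Uhrf1, which maintains DNA methylation at the replication fork (0.993), the kinesin gene Kif18b (0.991), Cdc20 (0.985) and Foxm1 (0.98), together with the histone genes H4c4 (0.979) and H4c3 (0.969) and the ligase gene Lig1 (0.97). Of the 10 rows closest to Top2a, 4 are on the pathway lists, namely the cytokinesis gene Ect2 (0.997), the pocket protein gene Rbl1 (0.993), the spindle gene Nusap1 (0.992) and the checkpoint kinase gene Bub1 (0.991). The other 6 were Dis3 (0.993), Tmpo (0.989), Atl3 (0.988), Eri2 (0.987), Lyar (0.986) and Septin2 (0.985), and 1141 of all rows compared were over 0.9. The same 10 rows, with knockout replicate 2 left out, correlated at 0.965 to 0.993 with Top2a, and the 10 rows closest to Plk1 at 0.954 to 0.991. Histone genes of one family can share probes, so their values are uncertain.

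**Figure D4:**
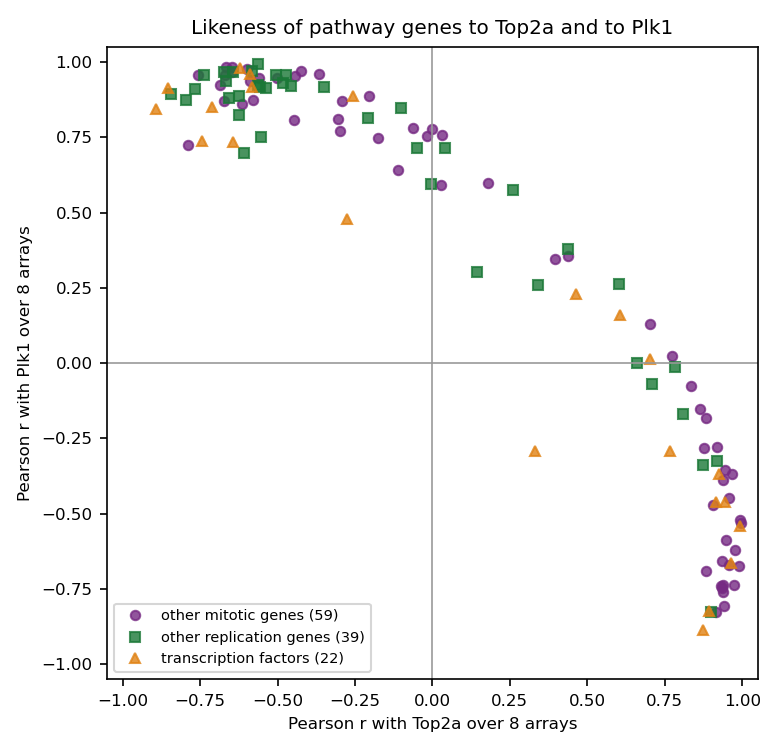
Pearson correlation over the 8 arrays with Top2a (horizontal axis) and with Plk1 (vertical axis) for 59 other mitotic genes (circles), 39 other replication genes (squares) and 22 transcription factors (triangles). In the upper left corner lie 66.7% of replication and 44.1% of mitotic genes, against 54.6% of all rows compared, and in the opposite corner 15.4% and 42.4%, against 39.5%. The listed genes are of any brightness, whereas the rows compared have a mean above 8.71.

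Without knockout replicate 2, 53.8% of replication genes and 39.0% of mitotic genes were above 0 for Plk1 and below 0 for Top2a, against 53.5% of all rows compared. The opposite signs were found for 5.13% of replication and 30.5% of mitotic genes, against 32.9%.

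Averaged over all 9 members, the profile was most like those of other genes of the programme. This mean joins both sets, and 6 of the 9 members belonged to the set of Plk1. The 10 rows with the highest correlation to the centred mean of the members over the 8 arrays were the condensin gene Ncaph (0.972), Cdkn2c, an inhibitor of Cdk4 and Cdk6 (0.945), Mcm6 (0.94), the repressor gene E2f8 (0.938), Ccnb2 (0.932), the primase gene Prim2 (0.925), Cdca3 (0.922), the kinesin gene Kif20a (0.921), Cdca8 (0.918) and Ticrr, which is needed to start replication (0.917). Of these, 8 are on the pathway lists, and Prim2 and Ticrr are not. The correlations of these 10 rows without knockout replicate 2 were 0.923 to 0.973. The least like the members were Sh3gl2 (-0.87), Akap8l (-0.865), Steap1 (-0.849), Stk19 (-0.842) and Clmn (-0.837). On this mean profile, control replicate 1 was highest, at 0.251 above the mean of the 8 samples, and knockout replicate 4 lowest, at -0.177.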

How the data were processed

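Log2 values per transcript cluster were used as the authors deposited them. Per the labels, they were made with Affymetrix Expression Console, for which the sources used here give no version, background correction or normalization. The methods of the study describe scaling to a larger set of mature OSN mRNAs. The alternative here was centring on 15 mature OSN marker genes, which is not the same step. Of these 15 genes, 13 were lower in knockout than in control samples. Groups were taken from the labels, which name no litter or pool. A p-value here sets a difference against the spread among these samples and treats them as independent. Per the study's methods, samples shared litters, which could not be modelled here. Precision is limited by the number of arrays.

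Rows with a gene symbol in the platform annotation (23410, of which 21789 had 1 symbol and 1621 had several) were tested two-sided with limma 3.58.1 (lmFit and eBayes) in R 4.3.3, as knockout against control without covariates, with Benjamini-Hochberg adjustment over these rows. The fit was tested on simulated data with 50 planted differences of each size. Knockout against control recovered 2% of log2 differences of 0.25, 54% of 0.5 and 92% of 1 at an adjusted p under 0.05. The simulated noise left out the difference between the array sets, which the real comparison held. Alternatives were other scalings, filters and variance settings, the methods' t-test, array weights, either control genotype, either set of 4 arrays and each sample left out. Each gene was read from its brightest row with a single symbol. Promoters came from RefSeq (GRCm38.p6).

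Members and lists were chosen with earlier results of these data known. The genes named were drawn from all members, partner subunits and factors (Incenp, Cdca8, Mcm3, Mcm4, Mcm6, Mcm7, Ccnb2, Aurka, Foxm1, Mybl2, E2f1, Lin9), the genes of each pathway list with the lowest p in each direction, Emx2, the 10 most and 5 least correlated rows among 10925 rows with a mean of at least 8.71, and the brightest markers of each cell type, of which only some are printed. Rows close to Top2a or Plk1 were named after their values were seen.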

Additional observations from a re-analysis of the deposited data

How the results depend on the processing

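The count of members called, 0 of 9, and that of genes called on the pathway lists, 0, held under all 22 alternatives run, and the lowest adjusted p of a member was 0.245 (Mcm2). The median difference of the members lay between -0.16 and 0.09. Signs of knockout minus control were not stable. Centred on mature OSN genes, it was 0.15 for Mki67, Aurkb and Mcm5, 0.09 for Cdk1 and Birc5, 0.07 for Plk1, 0.06 for Mcm2, 0.05 for Top2a and 0.0047 for Ccna2. Centred on the array median it was 0.01 for Mki67 and Aurkb and 0.02 for Mcm5, and after quantile normalization 0.01 for Mki67 and Mcm5 and 0.0025 for Aurkb. Against the Emx2(fl/fl) controls alone it was 0.12 for Mki67, 0.04 for Top2a, 0.01 for Ccna2 and 0.03 for Mcm5, and against the 123Cre:Emx2(fl/+) controls alone 0.0019 for Aurkb. With array weights it was 0.01 for Mki67. Within the first 4 arrays it was 0.04 for Mki67, Aurkb and Mcm2, 0.03 for Plk1 and 0.12 for Mcm5, and within the last 4 it was 0.02 for Top2a. With each sample left out in turn it ran from -0.1 to 0.07 for Mki67, -0.23 to 0.05 for Top2a, -0.16 to 0.03 for Cdk1, -0.13 to 0.09 for Aurkb, -0.24 to 0.03 for Plk1, -0.14 to 0.08 for Mcm5, -0.26 to -0.05 for Ccna2, -0.12 to -0.01 for Birc5 and -0.23 to -0.03 for Mcm2, and the last 4 minus the first 4 arrays from -0.02 to 0.23 for Ccna2. The cause was not tested.

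Between the last and the first 4 arrays, array weights called 1 member (Aurkb). Over all rows, knockout against control called 84, against 224 with array weights, 32 with 123Cre:Emx2(fl/+) and 25 with Emx2(fl/fl) controls alone, 28 by the methods' t-test, 27 without the dimmest 30% of rows, 0 within the first 4 arrays, and 46 to 132 with a sample left out. No paired analysis was possible because replicate numbers were given in accession order and the labels name no litter.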

Other observations

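Top2a had a second, dim row, which entered only the alternative that averages the rows of a gene. Its log2 values were 4.40, 4.78, 4.67 and 4.45 in knockout samples, against 5.01, 4.73, 4.64 and 4.63 in controls, with a difference of -0.18 (adjusted p = 0.948 in limma). These values lay far below the array medians of 8.0 to 8.13.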
